A study of Mus musculus with 10 samples.

Results

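Trat1, Pmf1, Doc2b, Ccdc80 and Clec7a are 5 mouse genes that differed between hippocampi expressing A-CREB and wild-type hippocampi when replicate number was included in the model. They are 5 of 18193 genes named by the array's annotation, and every probe set assigned to them alone was used, 9 of 45101 in all. They were chosen by their measured signals, as differences between 6 A-CREB arrays and 4 wild-type arrays. Differences between the genotypes are therefore given below as a description, with no test.

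Each of 10 arrays measured total hippocampal RNA pooled from 3 to 4 mice aged 3 weeks, and 14 wild-type and 20 A-CREB mice were used. A-CREB is a dominant-negative protein that pairs with CREB family transcription factors and keeps them from binding DNA. The A-CREB mice are labelled TetO-A-CREB-95 on C57BL6 F1/J, so the transgene sits behind a tetracycline operator promoter, and the labels used here name neither the line nor the cell type that drives it. The wild-type mice are labelled C57BL6 F1/J, a label that 2 of the 4 wild-type arrays lack. There were 5 groups of 2 arrays: wild type given saline, wild type given kainate at 14 mg/kg, A-CREB given saline, A-CREB given kainate at 14 mg/kg and A-CREB given kainate at 18 mg/kg. Kainate is a glutamate receptor agonist that provokes seizures. The higher dose was given to A-CREB mice alone, and the labels used here do not state the time after injection. Because every array is a pool, errors describe the spread between pools. An SD given over all arrays of a genotype also holds the differences between its treatment groups. In such bulk RNA, fewer cells of a type and less RNA per cell cannot be told apart.

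The members have unlike roles. Trat1 encodes an adaptor of the T cell membrane that associates with the T cell receptor complex. Pmf1 encodes a subunit of the Mis12 complex, which joins kinetochores to microtubules, and it was named as a polyamine-responsive partner of the transcription factor Nfe2l2. Doc2b encodes a calcium sensor with C2 domains that acts in vesicle release at synapses and in hormone-secreting cells. Ccdc80 encodes a secreted protein of the extracellular matrix. Clec7a encodes dectin-1, a C-type lectin receptor for beta-glucans on myeloid cells that signals through Syk and Card9, and it is widely used as a marker of reactive microglia. CREB itself acts through the cAMP response element, a short palindrome in the promoters of many activity-regulated genes.

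In the RefSeq annotation of build GRCm38.p6, Trat1 lies on chr16:48730774-48810547, Pmf1 on chr3:88394138-88410445, Doc2b on chr11:75768270-75796060, Ccdc80 on chr16:45093407-45127924 and Clec7a on chr6:129461591-129472785. Trat1 and Ccdc80 start 3.64 Mb apart on the same chromosome. Promoter windows from RefSeq were at hand for 3 of the 5 members, and those for Doc2b and Ccdc80 were not used here. The bases just before the annotated starts of these 3 members, which all had higher mean signals in A-CREB arrays, are shown since CREB is the factor that A-CREB blocks. Each is written 5′ to 3′ on the gene's strand, which is the minus strand for all 3. The Trat1 stretch is chr16:48772063-48772312 and lies inside the longest annotated extent of that gene, the Pmf1 stretch is chr3:88410446-88410647 and the Clec7a stretch is chr6:129472786-129473035.
Trat1: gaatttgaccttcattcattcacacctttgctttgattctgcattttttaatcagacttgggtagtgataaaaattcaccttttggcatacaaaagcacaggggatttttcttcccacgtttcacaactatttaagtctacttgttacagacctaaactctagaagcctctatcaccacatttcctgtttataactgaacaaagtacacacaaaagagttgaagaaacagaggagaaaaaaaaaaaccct
Pmf1: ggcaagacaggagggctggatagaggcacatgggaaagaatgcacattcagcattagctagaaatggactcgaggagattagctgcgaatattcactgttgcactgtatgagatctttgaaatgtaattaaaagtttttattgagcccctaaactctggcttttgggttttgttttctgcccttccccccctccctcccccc
Clec7a: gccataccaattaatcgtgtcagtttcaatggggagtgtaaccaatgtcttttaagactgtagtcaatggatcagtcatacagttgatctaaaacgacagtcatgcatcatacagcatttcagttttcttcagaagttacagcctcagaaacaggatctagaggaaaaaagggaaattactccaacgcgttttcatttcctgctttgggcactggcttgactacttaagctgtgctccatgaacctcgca

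These windows were searched on both strands for the full cAMP response element, TGACGTCA, and for its shorter form, TGACG or CGTCA, which every full element also holds. The windows searched run from 250 bases before to 50 after each start. The full element was in 1.79% of 32851 such mouse windows and in none of these members' windows. The shorter form was in 20.8% of all windows, and among these members it was found in Pmf1 alone. There it was TGACG, 8 bases after the start on which the window was built. That start lies inside the annotated extent of Pmf1, and the stretch printed above stops at the edge of that extent and leaves the match out. These matches are letters in a window and say nothing of binding.

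The deposited values are MAS5 signals, which are probe set brightness on a linear scale. The median signal of an array was 94.9 to 106 on arrays numbered replicate 1 and 135 to 152 on those numbered replicate 2. As a background level, the 95th percentile of 144 probe sets for olfactory receptors, vomeronasal receptors, keratin-associated proteins and beta-defensins was taken on each array. It was 53.6 to 77.1 on the arrays numbered 1 and 152 to 196 on those numbered 2, so a dim gene had to be brighter to clear it on the latter. All 12 measured markers of hippocampal granule and pyramidal neurons exceeded background on all 10 arrays. The wild-type kainate array numbered 2 stood apart in summed signal of 7 striatum markers, at 18350 against 4726 to 7700 on the other arrays, and the wild-type responses and the differences at 14 mg/kg are also given without it. Markers of choroid plexus, a tissue bordering the hippocampus, were lower in A-CREB after saline, with a median difference of -0.94 over 7 markers, -0.99 for Folr1, -0.94 for Clic6 and 0.05 for Ttr. None of the 7 passed by limma, and their median difference at 14 mg/kg was -0.07. The part of choroid plexus content in the saline differences below was not tested. Creb1, part of whose coding sequence the transgene shares, had 6 probe sets, and 1 of them separated the genotypes, with 116 to 193 in wild type and 199 to 281 in A-CREB. The labels used here do not state whether any of these probe sets lies within the transgene.

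**Figure D1:**
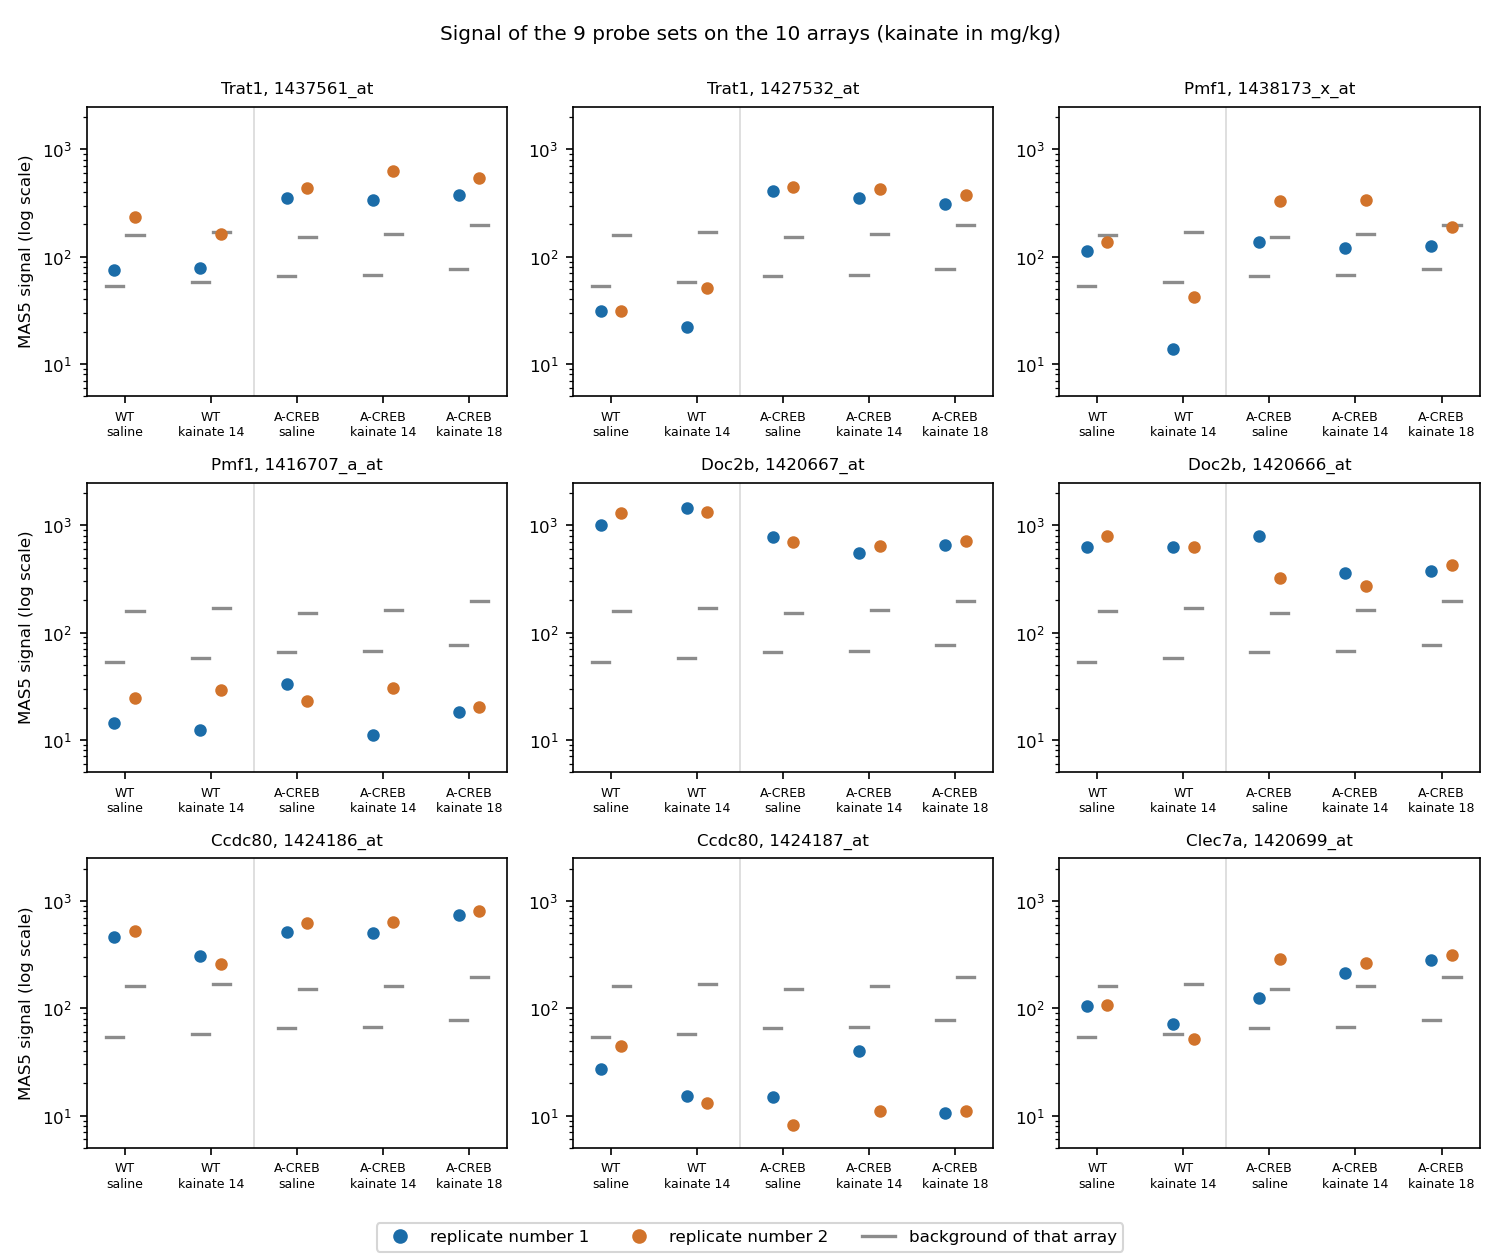
MAS5 signal (log axis) of the 9 probe sets of the 5 genes on each of the 10 arrays, with blue and orange points for replicate numbers 1 and 2 and a grey bar for the background level of that array. Both Trat1 probe sets and Clec7a are higher on all 6 A-CREB arrays than on all 4 wild-type arrays, Doc2b 1420667_at is lower, and 1 probe set each of Pmf1 and Ccdc80 never clears background.

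Trat1, the T cell adaptor, was at or near background in wild-type hippocampus and well above it in A-CREB hippocampus in every condition. Its probe set 1427532_at gave signals of 31.0 and 31.4 in wild type after saline and of 22.0 and 50.7 in wild type after kainate. In A-CREB the signals were 407 and 447 after saline, 352 and 430 after 14 mg/kg and 311 and 377 after 18 mg/kg. No wild-type array exceeded background and all 6 A-CREB arrays did. The A-CREB level was at least 4.02-fold higher over all arrays, a bound that sets each wild-type array at its background level, against mean signals of 387 ± 51.1 (SD, n = 6) in A-CREB and 33.8 ± 12.1 (SD, n = 4) in wild type. The saline arrays alone already showed this, with A-CREB at least 4.61-fold higher.

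The other Trat1 probe set, 1437561_at, was the brighter on average. It gave 75.3 and 236 in wild type after saline and 78.4 and 163 in wild type after kainate. In A-CREB it gave 355 and 434 after saline, 335 and 632 after 14 mg/kg and 380 and 547 after 18 mg/kg. The genotypes did not overlap, although 3 of 4 wild-type arrays exceeded background on this probe set. The mean ratio of A-CREB to wild type was 3.24 over all arrays and 2.53 after saline. On the scale of log2(signal + 22), which lowers the differences of dim genes, A-CREB exceeded wild type by 1.39 (SE 0.49) after saline and by 1.83 (SE 0.49) at 14 mg/kg. The saline difference was 0.68 without the wild-type saline array numbered 1 and 2.09 without the one numbered 2.

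The levels of Trat1 ran in the order wild type with kainate, wild type with saline, A-CREB with saline, A-CREB at 18 mg/kg and A-CREB at 14 mg/kg by mean signal of 1437561_at. On this probe set the 2 wild-type groups overlapped each other, as did the 3 A-CREB groups. The step between the genotypes was the one that no array crossed. On 1427532_at the A-CREB means ran the other way, at 427 after saline, 391 at 14 mg/kg and 344 at 18 mg/kg. There the A-CREB saline arrays lay above both arrays at 18 mg/kg.

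Most genes of T cell receptor signalling were dim. Of 20 such genes listed, 17 were on the array, 10 never exceeded background and 6 were bright enough to be tested. With limma and Benjamini-Hochberg adjustment none of the 6 passed between the genotypes, with or without the replicate number in the model. Over saline and 14 mg/kg, 0% of the 13248 genes tested passed without that number and 0.0302% with it. That none of so few passed, here or in the lists below, thus does not set them apart from other genes. The median genotype difference of these 6 over saline and 14 mg/kg was 0.12, against -0.02 over all genes tested. Ptprc, a phosphatase on all leukocytes including microglia, did not overlap between the genotypes, at 101 to 163 in wild type and 171 to 237 in A-CREB. Among 7 measured T cell markers, Cd2, Cd3d, Cd3g and Cd247 never exceeded background and Cd3e did so on 1 of 10 arrays. Cd8a, a coreceptor of cytotoxic T cells, exceeded background on 8 arrays, with 12.2 to 492 in wild type and 96.4 to 381 in A-CREB. Zap70, the kinase recruited to the T cell receptor, ranged from 377 to 623 in wild type and from 89.6 to 411 in A-CREB, and overlapped. Its difference over saline and 14 mg/kg was -1.50 (SE 0.40), with an adjusted p of 0.116 by limma with the replicate number. Pik3r1 and Pag1, the brightest of the list, had 0.17 (SE 0.13) and 0.15 (SE 0.13) and overlapped too. The summed signal of the T cell markers was 583 to 1246 in wild type and 267 to 941 in A-CREB.

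Pmf1, the kinetochore subunit, was seen by 1 of its 2 probe sets only. Its probe set 1416707_a_at ranged from 11.0 to 32.9, never exceeded background and did not pass the filter on low values. The other probe set, 1438173_x_at, gave 112 and 138 in wild type after saline and 13.9 and 41.9 in wild type after kainate. In A-CREB it gave 138 and 328 after saline, 121 and 340 after 14 mg/kg and 125 and 191 after 18 mg/kg. Background was exceeded on 1 of 4 wild-type and 5 of 6 A-CREB arrays, and over all arrays the genotypes overlapped. The suffix _x_ marks a probe set that may also detect other transcripts, so its signal is not assigned to Pmf1 with certainty.

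The saline arrays of Pmf1 hardly separated. Unrounded, the higher wild-type array stood at 137.8 and the lower A-CREB array at 138.2, so the absence of overlap there rests on a gap far below the spread within either group. The saline difference was 0.70 (SE 0.55), with 0.26 between the arrays numbered 1 and 1.13 between those numbered 2, and it was 0.13 without the A-CREB saline array numbered 2. At 14 mg/kg A-CREB exceeded wild type by 2.25 (SE 0.55). Both wild-type kainate arrays were below background, which gives an A-CREB level at least 2.05-fold higher at that dose, against mean signals of 230.3 in A-CREB and 27.9 in wild type. That difference was 1.58 without the A-CREB array numbered 2 at this dose. By mean signal the groups ran from wild type with kainate through wild type with saline and A-CREB at 18 mg/kg to A-CREB at 14 mg/kg and A-CREB with saline. Only the first 2 groups in that order were free of overlap with each other, and each later pair of neighbours overlapped.

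None of the genes listed for Pmf1 passed between the genotypes over saline and 14 mg/kg, where at most 0.0302% of all genes did. Its partners in the Mis12 complex, Mis12, Dsn1 and Nsl1, all exceeded background on 10 of 10 arrays, with genotype differences over saline and 14 mg/kg of -0.08 (SE 0.15), 0.29 (SE 0.28) and 0.23 (SE 0.45). They are named for their role and were picked after their values had been seen. Of 14 kinetochore genes 10 were tested, and by limma none passed between the genotypes. Of 11 genes of polyamine metabolism 8 were tested and again none passed, with a median difference of 0.04. In the kinetochore list 1 gene responded to kainate. Cenpa, the centromeric histone variant, rose by 2.84 in wild type (adjusted p = 0.000161) and by 2.28 in A-CREB at 14 mg/kg (adjusted p = 0.000849), while the other 9 tested did not pass.

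Doc2b, the calcium sensor, was the only member with lower signals in A-CREB, and both of its probe sets exceeded background on every array. Probe set 1420667_at gave 1004 and 1308 in wild type after saline and 1447 and 1342 in wild type after kainate. In A-CREB it gave 776 and 698 after saline, 546 and 639 after 14 mg/kg and 653 and 719 after 18 mg/kg. Every A-CREB array lay below every wild-type array. The mean was 1275 ± 190.0 (SD, n = 4) in wild type and 672 ± 78.7 (SD, n = 6) in A-CREB, a ratio of 1.90.

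The saline arrays of Doc2b differed too. Wild type exceeded A-CREB 1.57-fold after saline and 2.35-fold at 14 mg/kg. As log2 differences of A-CREB from wild type these were -0.62 (SE 0.19) and -1.21 (SE 0.19). Within the replicate numbers the saline difference was -0.36 for number 1 and -0.89 for number 2. The second probe set, 1420666_at, was above background on all arrays as well and gave 628 and 799 in wild type after saline, 620 and 624 in wild type after kainate, and 795 and 321 in A-CREB after saline. Its A-CREB kainate arrays gave 361 and 272 at 14 mg/kg and 374 and 430 at 18 mg/kg. The A-CREB saline array numbered 1 thus stood among the wild-type arrays on this probe set, while the other 5 A-CREB arrays lay below all of them.

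By mean signal of 1420667_at the groups ran from A-CREB at 14 mg/kg through A-CREB at 18 mg/kg and A-CREB with saline to wild type with saline and wild type with kainate. The arrays of the first 2 groups did not overlap, at 546 and 639 against 653 and 719. Those of A-CREB at 18 mg/kg and with saline overlapped, and the wild-type groups did not, at 1004 and 1308 against 1342 and 1447.

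The release machinery around Doc2b was bright and overlapped between the genotypes. Of 20 calcium sensors and priming factors of exocytosis 18 were tested, and 17 exceeded background on every array. Like nearly all genes, none of the 18 passed between the genotypes by limma, with or without the replicate number. Their median genotype difference over all arrays was -0.06, against -0.02 over all genes tested. Snap25, a core subunit of the fusion complex, ranged from 20024 to 21644 in wild type and from 18360 to 23675 in A-CREB. Vamp2, its vesicle partner, ranged from 8851 to 10575 and from 6704 to 12821. Syt1, the main calcium sensor of fast release, ranged from 13949 to 17033 and from 11790 to 16349. All 3 overlapped between the genotypes. The 12 markers of hippocampal granule and pyramidal neurons had a median genotype difference of -0.07 after saline and -0.30 at 14 mg/kg. Over all genes tested it was -0.03 and -0.01. Among the 12, C1ql2 alone passed over saline and 14 mg/kg by limma, as lower, with the replicate number in the model. The part of neuronal content in the Doc2b difference was not tested.

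Ccdc80, the matrix protein, was above background on all arrays through probe set 1424186_at with genotypes that overlapped after saline and not after kainate. It gave 466 and 526 in wild type after saline and 308 and 256 in wild type after kainate. In A-CREB it gave 518 and 622 after saline, 502 and 638 after 14 mg/kg and 742 and 815 after 18 mg/kg. After saline the genotypes overlapped and the mean ratio of A-CREB to wild type was 1.15. At 14 mg/kg they did not overlap and the ratio was 2.02. The second probe set, 1424187_at, ranged from 8.24 to 44.2, never exceeded background and did not pass the filter.

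On the log2 scale the Ccdc80 difference was 0.19 (SE 0.20) after saline and 0.96 (SE 0.20) at 14 mg/kg. The saline value was 0.06 without the A-CREB saline array numbered 2 and 0.32 without the one numbered 1. Within the replicate numbers the saline differences were 0.15 and 0.23, and those at 14 mg/kg were 0.67 and 1.25. By mean signal the groups ran from wild type with kainate through wild type with saline to A-CREB with saline, A-CREB at 14 mg/kg and A-CREB at 18 mg/kg. The 2 middle A-CREB groups had means of 570.0 and overlapped, and the arrays of the 18 mg/kg group lay above all others.

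Matrix genes were listed beside Ccdc80. Of 17 genes of matrix and meningeal fibroblasts 15 were tested and, like nearly all genes, none passed between the genotypes by limma. Their median genotype difference was -0.20 after saline and 0.21 at 14 mg/kg, and that of 9 markers of meningeal fibroblasts alone was -0.11 and 0.37. The A-CREB response minus the wild-type response had a median of 0.49 over the 15 genes and of 0.66 over the 9 markers, against 0.01 over all genes tested, and again none passed. The part of meningeal content in the Ccdc80 values was not tested. Dcn, the matrix proteoglycan decorin, ranged from 1300 to 2495 in wild type and from 1853 to 2683 in A-CREB. The summed signal of the 9 meningeal markers was 6182 to 8058 in wild type and 5571 to 9169 in A-CREB, and the ranges overlapped.

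Clec7a, dectin-1, has 1 probe set, 1420699_at, and was higher in A-CREB. It gave 105 and 108 in wild type after saline and 71.0 and 52.2 in wild type after kainate. In A-CREB it gave 125 and 290 after saline, 213 and 265 after 14 mg/kg and 284 and 315 after 18 mg/kg. All 6 A-CREB arrays exceeded background and lay above all 4 wild-type arrays, of which the 2 numbered replicate 1 exceeded background. The mean was 249 ± 69.6 (SD, n = 6) in A-CREB and 84.0 ± 27.1 (SD, n = 4) in wild type, a ratio of 2.96.

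After saline the Clec7a difference rested largely on 1 array. It was 0.74 (SE 0.38) on the log2 scale, with 0.21 between the arrays numbered 1 and 1.26 between those numbered 2. Without the A-CREB saline array numbered 2 it was 0.20, and without the one numbered 1 it was 1.28. At 14 mg/kg the difference was 1.64 (SE 0.38), with 1.34 and 1.95 within the replicate numbers. By mean signal the groups ran from wild type with kainate through wild type with saline and A-CREB with saline to A-CREB at 14 mg/kg and then 18 mg/kg. A-CREB with saline and A-CREB at 14 mg/kg overlapped, and the other neighbours in this order did not.

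The summed signal of microglia markers was also higher in A-CREB. Over 14 of 15 listed markers it was 17594 to 20399 in wild type and 20483 to 29229 in A-CREB. The sums did not overlap, by a gap far below the spread within either genotype, between the wild-type kainate array numbered 2 and the A-CREB saline array numbered 1. Of the 14 markers 12 exceeded background on every array. Like nearly all genes, none of the 14 passed between the genotypes alone by limma. Their median genotype difference was 0.23 after saline and 0.49 at 14 mg/kg, against -0.03 and -0.01 over all genes tested. Csf1r, the receptor that microglia need to survive, ranged from 4172 to 6070 in wild type and from 4428 to 7274 in A-CREB. C1qa, a complement subunit, ranged from 1580 to 2416 and from 2287 to 4091, and Ctss, a lysosomal protease, from 3301 to 5645 and from 4179 to 7334, and all 3 overlapped. The part of microglial content in the Clec7a difference was not tested.

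**Figure D2:**
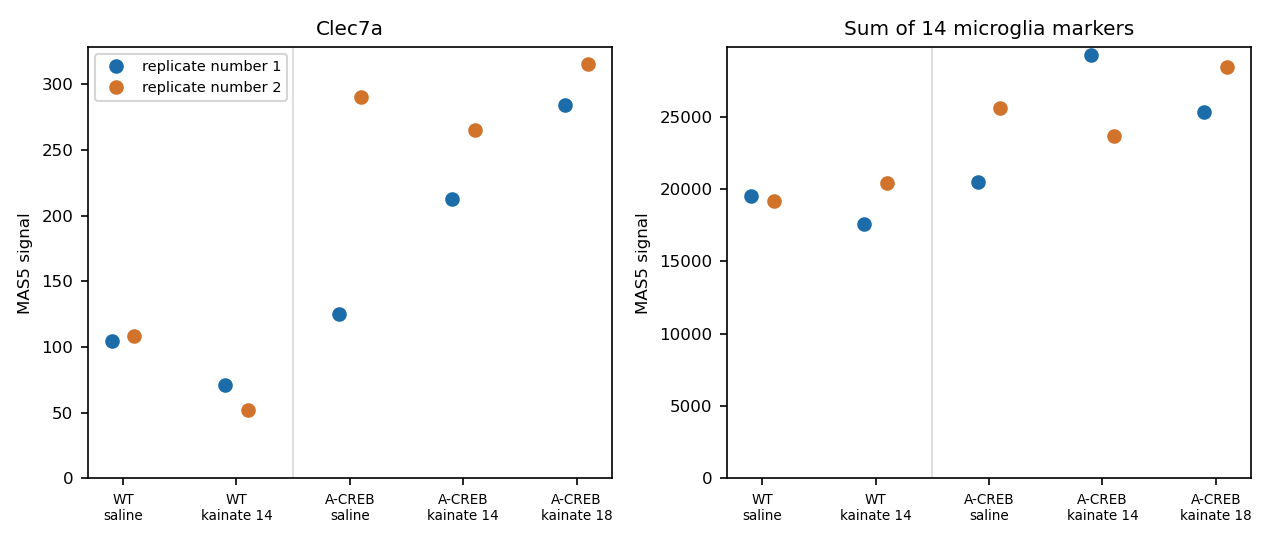
MAS5 signal of Clec7a (left) and the summed MAS5 signal of 14 microglia markers (right) on each array by group, with blue and orange points for replicate numbers 1 and 2 and axes from 0. On both panels every A-CREB array lies above every wild-type array, with Clec7a at 52.2 to 108 in wild type and 125 to 315 in A-CREB.

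The receptors related to Clec7a were dim, and the 9 measured exceeded background on at most 2 arrays each. Of 18 genes of the dectin family and Syk-Card9 signalling 15 were on the array, 6 never exceeded background and 7 were tested. Like nearly all genes, none of the 7 passed between the genotypes by limma. Prkcd, a kinase of this pathway, ranged from 635 to 834 in wild type and from 566 to 724 in A-CREB. Bcl10, which acts with Card9, ranged from 423 to 881 and from 547 to 926. Of 17 genes of reactive microglia 15 were tested and none passed, and their median genotype difference was 0.22. Apoe and Ctsd, both among the brightest of that list, had differences of 0.04 (SE 0.15) and -0.02 (SE 0.12). Cd9, also among the brightest, had 0.16 (SE 0.16). Cst7, at 1.61 (SE 0.43), and Trem2 had larger differences. Both were picked after their values were seen and are described under the last heading.

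Side by side, the members differed in how firm their saline differences were. Trat1 did not overlap on either probe set, although the size on 1437561_at moved from 0.68 to 2.09 with single arrays left out. Doc2b did not overlap on 1420667_at and overlapped on 1420666_at, with -0.46 (SE 0.36). The saline differences of Pmf1 and Clec7a rested largely on 1 array, and Ccdc80 overlapped. With saline arrays alone, 4 of 5 brightest probe sets had no overlap between the genotypes, as did 21.8% of the 13248 genes tested. At 14 mg/kg 5 of 5 had none, as did 21.6% of all genes. Over all 10 arrays 3 of 5 had none, Trat1, Doc2b and Clec7a, against 0.891% of all genes. The rule used these contrasts, so the counts are a description. On the brightest probe set of each member the difference had the same sign in both replicate numbers, after saline and at 14 mg/kg alike. On the second Doc2b probe set it turned after saline, at 0.33 for number 1 and -1.26 for number 2. Without the wild-type kainate array of high striatum markers the differences at 14 mg/kg were 2.27 for Trat1, 2.66 for Pmf1, -1.26 for Doc2b, 0.84 for Ccdc80 and 1.48 for Clec7a.

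**Figure D3:**
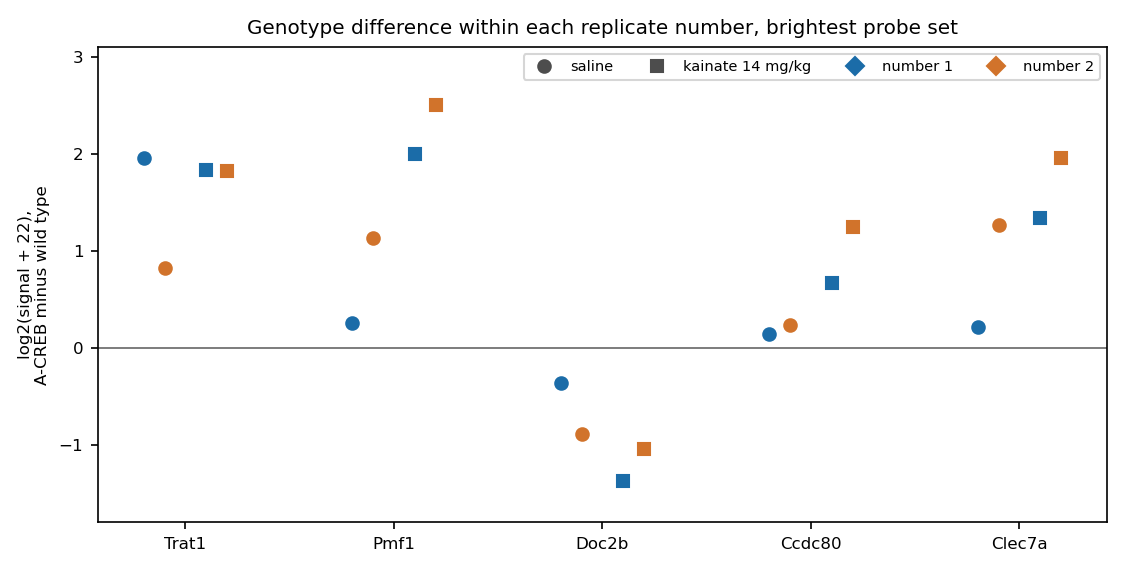
Difference of log2(signal + 22) between A-CREB and wild type for the brightest probe set of each gene, taken between arrays of the same replicate number, with circles for saline, squares for 14 mg/kg, and blue and orange for numbers 1 and 2. Doc2b lies below 0 in all 4 pairs and the other genes above it, and Ccdc80 after saline lies nearest to 0, at 0.15 and 0.23.

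The members were chosen by the genotype difference over all arrays with the replicate number in the model. In that comparison 20 genes or 0.151% passed an adjusted p of 0.05 by limma, and all 5 members were among them by that choice. Their places, 1 for Trat1, 2 for Doc2b, 5 for Clec7a, 6 for Pmf1 and 13 for Ccdc80, are a description and no test. The 2 genes just inside that threshold were Cxcl10, with a difference of 1.17, and Mpeg1, with 0.72. The 2 just outside it were Slc41a3, with 0.76, and Zfp931, with 0.51. In the same fit of all 10 arrays, no gene passed in the contrast of the saline groups (0%), and 740 genes had an unadjusted p below 0.05. Without the replicate number no gene passed in any genotype contrast by limma, and 429 had an unadjusted p below 0.05 over all arrays.

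The kainate responses were not used to choose the members and could be tested. With limma over all genes and no replicate number, 0 of 5 members passed in wild type, where 0.181% of genes did, and 2 members, Pmf1 and Ccdc80, had an unadjusted p below 0.05. In A-CREB 0 of 5 passed at 14 mg/kg, where 0.309% of genes did, and 0 of 5 at 18 mg/kg, where 0.249% did, with no member below an unadjusted 0.05, or 1, Ccdc80 at 18 mg/kg, with the replicate number. For the mean response of both genotypes 0 of 5 passed against 0.702% of genes, and 1 member, Ccdc80, had an unadjusted p below 0.05, or 2, Ccdc80 and Pmf1, with the replicate number. No member thus passed in this fit, and with the replicate number Pmf1 alone did, in the wild-type response. With 2 arrays a group, a response that did not pass is not shown to be absent.

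In wild type both kainate arrays of Pmf1 were below background, and so was the saline array numbered 2, at 138 against 160. No bound on the fold of the wild-type Pmf1 response is therefore given. On the log2 scale as measured, the kainate arrays lay below the saline arrays, by a difference of -1.61 (SE 0.55, adjusted p = 0.9999 by limma) in the fit without the replicate number. With the replicate number in the model it passed, at the same difference with an SE of 0.31 and an adjusted p of 0.0265, when 0.717% of all genes passed. That call was lost without any of the 4 wild-type arrays, with adjusted p from 0.0878 to 0.268, and also when all tested probe sets were adjusted together (adjusted p = 0.0675). Over all alternatives its adjusted p ran from 0.0227 to 0.99998. Without the array of high striatum markers the difference was -2.03. In A-CREB the response of Pmf1 was -0.06 (SE 0.55) at 14 mg/kg and -0.42 (SE 0.55) at 18 mg/kg.

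Ccdc80 was also lower in wild type after kainate, by -0.77 (SE 0.20), and did not pass, with an adjusted p of 0.559 by limma and of 0.0835 with the replicate number, the lowest over its alternatives. Without the wild-type kainate array numbered 2, the one with high striatum markers, the difference was -0.65. In A-CREB the response of Ccdc80 was -0.00387 (SE 0.20) at 14 mg/kg and 0.44 (SE 0.20) at 18 mg/kg. The 18 mg/kg arrays lay above the saline arrays, and neither response passed.

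On their brightest probe sets the responses of the other members were smaller than 2 SE. Trat1 had -0.22 (SE 0.49) in wild type, 0.22 (SE 0.49) in A-CREB at 14 mg/kg and 0.21 (SE 0.49) at 18 mg/kg. Its other probe set, 1427532_at, had lower A-CREB means after kainate, at 391 and 344 against 427 after saline. Clec7a had -0.63 (SE 0.38), 0.28 (SE 0.38) and 0.58 (SE 0.38) in the same order. Doc2b had 0.28 (SE 0.19), -0.31 (SE 0.19) and -0.10 (SE 0.19). Each adjusted p was 0.9999 by limma, and none of these responses passed. Without the array of high striatum markers the wild-type response was -0.66 for Trat1, -0.47 for Clec7a and 0.33 for Doc2b.

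**Figure D4:**
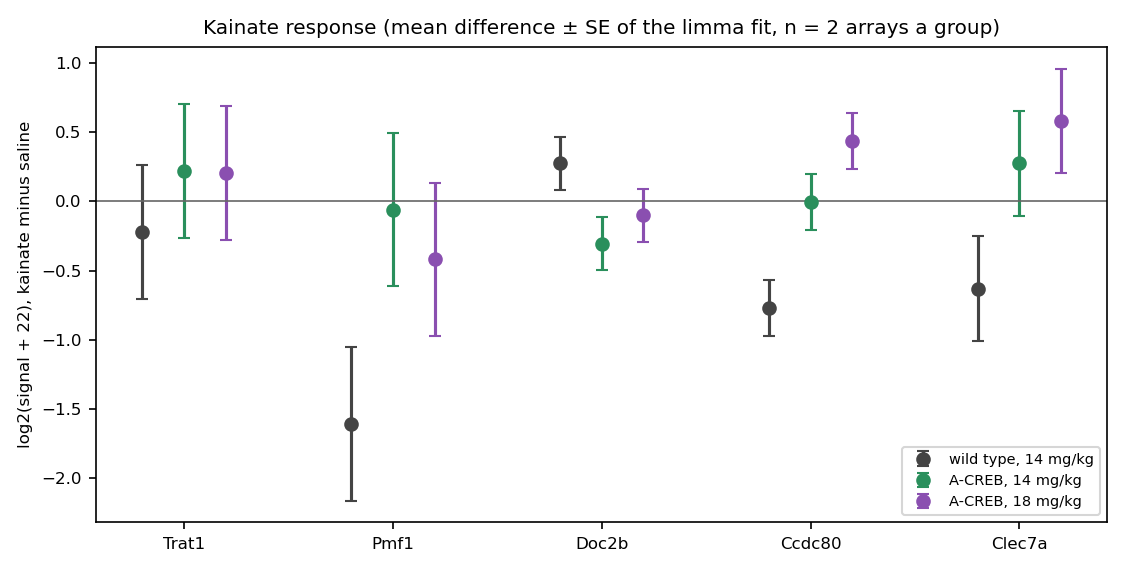
Kainate response of the brightest probe set of each gene as the difference of log2(signal + 22) from saline arrays of the same genotype, with the SE of the limma fit as bars (2 arrays a group) and colours for wild type at 14 mg/kg and A-CREB at 14 and 18 mg/kg. Pmf1 and Ccdc80 in wild type lie farthest below 0, at -1.61 and -0.77. The Pmf1 value includes 2 kainate arrays and the saline array numbered 2 below background.

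Whether the genotypes responded unequally at 14 mg/kg was tested as the A-CREB response minus the wild-type response. Of all genes 0% passed by limma with or without the replicate number, and 95 had an unadjusted p below 0.05 without it. Among the members 0 of 5 passed, and 1, Ccdc80, had an unadjusted p below 0.05, or 3, Pmf1, Doc2b and Ccdc80, with the replicate number. The difference was 1.55 (SE 0.78) for Pmf1, 0.91 (SE 0.54) for Clec7a, 0.77 (SE 0.29) for Ccdc80, 0.44 (SE 0.69) for Trat1 and -0.58 (SE 0.27) for Doc2b. Without the array of high striatum markers it was 1.97 for Pmf1, 0.74 for Clec7a, 0.65 for Ccdc80, 0.88 for Trat1 and -0.64 for Doc2b. A genotype difference larger after kainate than after saline was therefore not established for any of the 5.

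The doses could be compared in A-CREB alone. Between 18 and 14 mg/kg 0% of genes and 0 of 5 members passed by limma, with 73 genes and no member below an unadjusted p of 0.05, or 1 member, Ccdc80, with the replicate number. Ccdc80 had the largest difference, 0.44 (SE 0.20), and its arrays did not overlap between the doses. Those of Clec7a did not overlap either, at 213 and 265 against 284 and 315, a difference of 0.31 (SE 0.38).

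Across the 10 arrays the members varied together once the mean of each replicate number was taken out. Pearson correlations between them, which partly restate the genotype difference that chose them, were 0.746 to 0.919 among the 4 genes higher in A-CREB. Doc2b correlated with those 4 at -0.908 to -0.769. The highest was between Ccdc80 and Clec7a, and the lowest in size between Trat1 and Pmf1.

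For each member the 3 genes of most similar pattern over the 10 arrays were found by the same correlation. Nearest to Doc2b were Stxbp6, a binder of syntaxin (r = 0.951), Cxcl12, a chemokine (r = 0.931), and Ptprn2, a protein of dense-core vesicles (r = 0.931). Stxbp6 ranged from 2273 to 2662 in wild type and from 1470 to 1719 in A-CREB, and the other 2 likewise did not overlap. Stxbp6 and Ptprn2 were themselves among the 20 genes that passed the contrast that chose the members, so their likeness partly restates it. Nearest to Clec7a were Ptprc, the leukocyte surface phosphatase CD45 (r = 0.959), Aqp4, the astrocyte water channel (r = 0.948), and Epsti1, an interferon-induced gene (r = 0.945). Ptprc did not overlap between the genotypes, while Aqp4, at 2962 to 3818 in wild type and 3353 to 5207 in A-CREB, did.

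The genes of most similar pattern to the other members all overlapped between the genotypes. Trat1 was followed by Rmdn2 (r = 0.947), Oas1a (r = 0.937) and Epsti1 (r = 0.935), and Oas1a is an antiviral gene induced by interferon. Pmf1 was followed by Pgap1 (r = 0.957), Ifit2 (r = 0.950), which is also induced by interferon, and AU020206 (r = 0.946). Ccdc80 was followed by Gm20559 (r = 0.966), Il1f10 (r = 0.943) and Ggps1 (r = 0.932). Epsti1 was near to both Trat1 and Clec7a, with 82.5 to 131 in wild type and 111 to 167 in A-CREB.

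Genes near the members on the chromosome were set beside them. Of tested genes that start within 5 Mb there were 32 around Trat1, 120 around Pmf1, 138 around Doc2b, 29 around Ccdc80 and 64 around Clec7a. With the replicate number in the model 1 gene in these windows passed over saline and 14 mg/kg, where 0.0302% of all genes did, and it was Trat1 itself, in the window of Ccdc80. The median difference of each window lay between -0.07 and -0.01, against -0.02 over all genes. The largest differences other than of members were 0.85 (SE 0.37) for 1700026J12Rik near Trat1, -0.89 (SE 0.36) for Cd1d1 near Pmf1, 0.82 (SE 0.32) for Xaf1 near Doc2b and -0.89 (SE 0.50) for Clec1a near Clec7a. None of these passed, and all 4 overlapped between the genotypes.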

How the data were processed

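Each array held a hippocampal RNA pool. The deposited values are intensity, which the authors computed with MAS5 in GCOS, per the submitters' processing notes (no versions named there). They are signals on a linear scale, and the 2% trimmed mean of every array was 500.002 to 500.003, so no further scaling was applied. Apart from 64 controls, the 45101 probe sets comprised 34945 with 1 gene, 932 with several and 9160 with none. Signals entered as log2(signal + 22), where 22 is their 20th percentile, and a gene was tested through its brightest probe set if its mean ranked in the upper 60% (13248 genes, 27023 probe sets).

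All 10 arrays in 5 groups were fitted with limma 3.58.1 in R 4.3.3 (intensity trend, two-sided, Benjamini-Hochberg within a comparison, threshold 0.05, 5 residual degrees of freedom). The procedure was tested on simulated data. The replicate number as a block was an alternative with 4. What these numbers stand for is not stated in the labels. Deviations of same-numbered arrays correlated at 0.523 to 0.648 over 10 pairs of groups, and 10 of 10 arrays correlated best with one of their own number. The numbers were therefore taken as pairing in that alternative, while the main fit ignores them. Every SE given is of the main fit, unless the replicate number is named with it as for Pmf1 in wild type. This holds also where an adjusted p beside the SE is from the alternative. The contrasts tested do not overlap with the one that chose the members, but share its estimate of spread.

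Members and lists were chosen with earlier results of these data known. Genes were named as members, the 3 of most similar pattern, up to 3 of each list by signal, those within 5 Mb with the largest differences, Creb1, and others where stated. The number of arrays limits the precision. Alternatives concerned pseudocount, filter, normalization, variance model, array weights, block, probe sets, groups fitted and left-out arrays.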

Additional observations from a re-analysis of the deposited data

Results flagged for a closer look

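On its brightest probe set, Doc2b had kainate arrays on opposite sides of the saline arrays in the genotypes, and neither response passed. Both wild-type kainate arrays were higher than both wild-type saline arrays and both A-CREB kainate arrays lower than both A-CREB saline arrays. The A-CREB response minus the wild-type response was -0.58 (SE 0.27) on the log2 scale, and by limma over all genes it did not pass (adjusted p = 0.99998, unadjusted p = 0.0565). The responses themselves were 0.28 (SE 0.19) in wild type and -0.31 (SE 0.19) in A-CREB. Leaving out single arrays gave -0.77 to -0.40. The second Doc2b probe set had lower means after kainate in both genotypes (-0.18 and -0.66, SE 0.36 each), at 620 and 624 against 628 and 799 in wild type and at 361 and 272 against 795 and 321 in A-CREB.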

How the results depend on the processing

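With 2 arrays a group, small responses of the dim members could not be resolved, and Pmf1 and Clec7a lay close to background in wild type. The replicate block raised the members called in the wild-type response from 0 to 1 (Pmf1), and leaving out single arrays from the blocked fit, added after seeing the data, gave 0 to 1. It changed no other call of a kainate comparison. Of the other comparisons of kainate, 0 members passed under every alternative run. With a filter at the upper 40%, which drops Pmf1 and Clec7a, members with no overlap numbered 2 after saline (4 as reported) and 3 at 14 mg/kg (5 as reported). With cyclic loess they numbered 5 over saline and 14 mg/kg and 5 over all arrays, where 3 were reported in each, and leaving out single arrays gave 3 to 5 for both, with 5 reached without the wild-type saline array numbered 2. Probe sets above background on every array numbered 3 of 9 as reported, 7 with the background at its families' median and 6 with the 20th percentile of all signals. With a pseudocount 4 times as large the difference at 14 mg/kg was 1.38 for Pmf1 and 1.13 for Clec7a.

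These alternatives covered the brightest probe set of each member only, and there no genotype difference reversed. On the second Doc2b probe set the saline difference differed in sign between the replicate numbers, at 0.33 and -1.26. On the brightest probe sets, responses near 0 did reverse. The A-CREB response of Ccdc80 at 14 mg/kg was 0.0594 with quantile normalization and 0.0577 with cyclic loess. The mean response of Trat1 was -0.0039 with a smaller pseudocount, and that of Doc2b was 0.0276 with quantile normalization and 0.0387 with cyclic loess. With single arrays left out, the wild-type response of Trat1 ran from -0.92 to 0.48. The A-CREB response at 14 mg/kg ran from -0.22 to 0.66 for Trat1, -0.73 to 0.61 for Pmf1, -0.17 to 0.16 for Ccdc80 and -0.27 to 0.82 for Clec7a. At 18 mg/kg it ran from -0.0463 to 0.46 for Trat1 and -0.98 to 0.14 for Pmf1. The mean response ran from -0.35 to 0.35 for Trat1, -0.11 to 0.0788 for Doc2b and -0.45 to 0.0945 for Clec7a, the difference of responses of Trat1 from -0.26 to 1.14, and the dose difference from -0.45 to 0.42 for Trat1 and -1.03 to 0.31 for Pmf1. The cause was not tested.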

Other observations

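Among the reactive microglia genes, Cst7, a cystatin, and Trem2, a lipid receptor of microglia, are named here after their values were seen. The 15 genes tested on that list had a median genotype difference of 0.22 over saline and 14 mg/kg, and none passed. Cst7 ranged from 16.2 to 79.5 in wild type and from 81.6 to 217 in A-CREB, and exceeded background on 6 of 10 arrays. Its genotypes did not overlap, as was so for 0.891% of all genes. Its difference over saline and 14 mg/kg was 1.61 (SE 0.43), and it did not pass by limma (adjusted p = 0.202 with the replicate number). Trem2 ranged from 26.3 to 251 and from 243 to 517, which overlapped, with 1.29 (SE 0.47) and an adjusted p of 0.431 in the same fit.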
